A study of Mus musculus with 60 samples.

Results

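Hypothalamic RNA of 10 tumor-bearing and 7 vehicle injected mice was compared gene by gene, with the time of day of collection held constant. The members are all hypothalamus samples with values, 17 of the 56 samples analysed in the series, and all 770 genes of the panel were tested in them. The mice were adult female Balb/C, 13 weeks old when tissue was taken, housed in 14 h of light and 10 h of dark. Tumor-bearing mice had received 67NR cells, a non-metastatic line derived from 1 spontaneous mammary tumor of a Balb/cfC3H mouse, in both inguinal mammary glands, and vehicle injected mice had received the culture medium DMEM at the same sites. Brains were collected on day 25 after injection at ZT19 (mid-dark) or ZT7 (mid-light) from mice perfused with PBS. There were 5 tumor-bearing mice at mid-dark, 5 at mid-light, 3 vehicle injected mice at mid-dark and 4 at mid-light. Hypothalamus values of vehicle mice 12 and 32 (mid-dark) and 10 (mid-light) were not analysed here, so each vehicle value weighs more than each tumor value. The samples without values are all of vehicle mice. The authors left out outliers by the raw data, and whether these samples were among them is not known here. If they were, the vehicle ranges used below may be too narrow, which was not tested. All tumors came from a single cell line, so the comparison covers 1 tumor model.

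The hypothalamus controls feeding, body temperature, sleep and the stress axis, and parts of it lie close to vessels that let blood-borne signals through. Cytokines in the blood are known to act on receptors of brain vessel cells, which then make prostaglandins that reach nearby neurons. Reactive endothelium and glia also release acute phase proteins such as lipocalin-2. The assay, the nanoString nCounter Mouse Neuroinflammation Panel, counts barcoded probes bound to each transcript and covers glial, vascular, immune and neuronal genes. None of 12 genes for hypothalamic peptides and regulators that were looked up, among them Pomc, Agrp, Avp, Oxt and Crh, is on the panel. The appetite and stress peptides themselves were therefore not measured.

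Expression is given as the authors' log2 values, and a log2 FC is tumor minus vehicle. The depth behind each value is unknown because the counts were not used here, so precision comes from the numbers of mice. Slc17a6, the vesicular glutamate transporter of the hypothalamus and brain stem, ran from 13.0 to 13.4 in the 17 samples, against 7.20 to 10.1 in the hippocampus of the series. Dlx1, a forebrain regulator of inhibitory neurons, ran from 7.98 to 9.04, against 2.19 to 5.87 in the brain stem. Slc17a7, the transporter of cortical and hippocampal glutamate neurons, was 4.85 to 9.05 in the hypothalamus samples, the widest of these ranges, against 12.6 to 13.3 in hippocampus. The Y-linked genes Uty and Kdm5d, which female mice lack, read 2.59 to 4.52 and were taken as the background of the assay. By that mark, 98 of the 770 genes (12.7%) had a mean at or below background. Tumor-bearing mice had spleens of 0.184 to 0.269 g, against 0.107 to 0.135 g in the 7 vehicle injected mice, with no overlap (exact permutation test within phase, two-sided, p = 0.000142, the smallest that the 7056 assignments allow).

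Lcn2 and Ly6a rose in the hypothalamus of tumor-bearing mice, and no gene fell at the same threshold. These were 2 of 770 genes (0.26% of those tested) at a Benjamini-Hochberg adjusted p under 0.05 in limma with phase as a covariate. A fit over the 3 brain regions with the mouse as a block gave 4 higher (also F3 and Lrg1) and 1 lower (E2f1) in hypothalamus. That fit pools the spread of each gene over the regions, so its p values for hypothalamus assume equal spread in all 3. At an unadjusted p under 0.05 the count was 58 (7.53%), of which 29 were higher (3.77%) and 29 lower (3.77%) in tumor-bearing mice. Of the 58, 9 had a mean at or below the background level, and Uty, which cannot be transcribed in these mice, was among them with a log2 FC of -0.31 (unadjusted p = 0.0409). The median log2 FC of all genes was 0.0035, with 397 genes above and 373 below 0. With both phases pooled, Ly6a was the only gene whose values in tumor-bearing and vehicle injected mice did not overlap (1 of 770, 0.13%). An exact permutation test over mice gave 57 genes at an unadjusted p under 0.05 and none after adjustment, because the 0.000142 reached by Lcn2 and Ly6a becomes 0.0546 when adjusted over 770 genes.

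**Figure D1:**
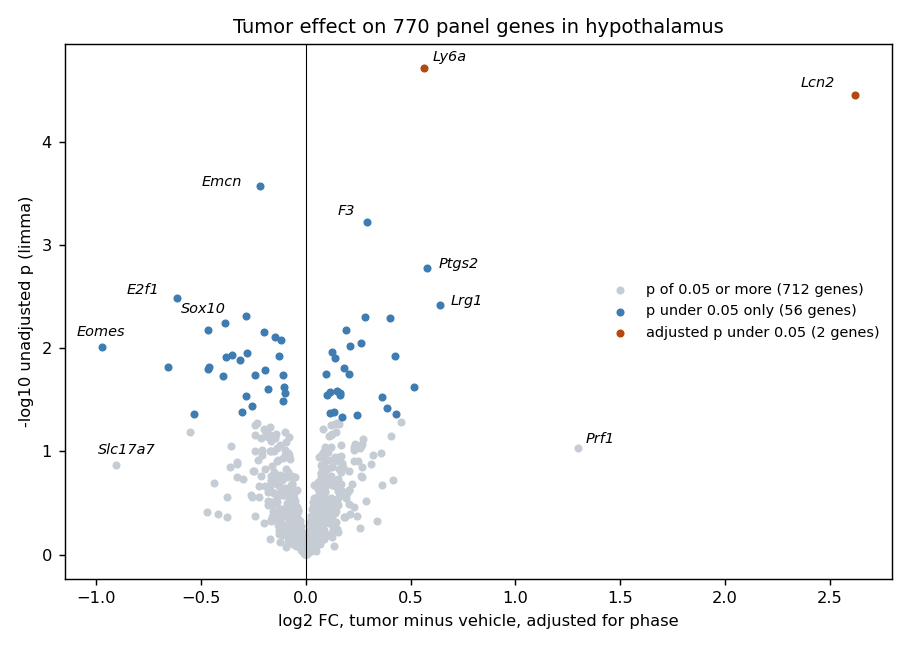
Each point is 1 of 770 panel genes in hypothalamus, with log2 FC (tumor minus vehicle, adjusted for phase) on the x axis and -log10 of limma's unadjusted p on the y axis. Lcn2 at 2.62 and Ly6a at 0.56 (orange) had an adjusted p under 0.05, 56 further genes (blue) had only an unadjusted p under 0.05, and 712 (grey) had neither.

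Lcn2 encodes lipocalin-2, a secreted protein that binds iron-carrying siderophores and is induced in many tissues by inflammation. Its log2 value was 3.73, 4.69, 4.09 and 3.66 in the 4 vehicle mice at mid-light and 5.86, 4.43 and 3.38 in the 3 at mid-dark. In tumor-bearing mice it was 5.82, 5.71, 8.36, 7.97 and 5.22 at mid-light and 6.39, 7.73, 6.60, 8.01 and 7.43 at mid-dark. All 10 tumor-bearing mice lay above the vehicle median of 4.09, and 7 of them above the highest vehicle mouse, number 4, whose 5.86 overlapped the 3 lowest tumor values. The log2 FC was 2.62 (SE 0.46, 95% interval 1.64 to 3.60, adjusted p = 0.0133). In 5 of the 7 vehicle mice the value lay within the range read from the Y-linked probes, and the vehicle mean of 4.26 lay within it too, so the log2 FC is limited by background and no fold is given. Vehicle mouse 28 had the lowest value, and without it the log2 FC was 2.38 and the adjusted p 0.0534. Granulocytes, blood cells that also make lipocalin-2, had markers mostly too low to measure. Ly6g, which marks neutrophils, ran from 2.46 to 4.41 in tumor-bearing and from 2.19 to 4.38 in vehicle mice, within the background range, with a log2 FC of -0.0034. Csf3r, another granulocyte marker, was above background, at 5.40 to 6.41 in tumor-bearing and 5.77 to 6.20 in vehicle mice. Fpr1, partly above background, ran from 4.01 to 5.32 and from 4.18 to 4.83. The 31 markers of lymphocytes, NK cells, mast cells and granulocytes together summed to 9.82 to 10.4 (log2 of the summed linear values) in tumor-bearing and 9.71 to 10.4 in vehicle mice, and 25 of the 31 had a mean at or below background. Hdc was the highest of the 31 in every mouse, at 8.63 to 9.78 in tumor-bearing and 8.27 to 9.60 in vehicle mice. The mast cell markers Ms4a2 (1.87 to 3.88 in the 17 samples) and Cpa3 (3.82 to 4.55) lay near background or lower. The cell source of Hdc was not tested. The sums follow Hdc most, say little of the other markers and are not read as a measure of blood cells. The part of blood cells in the Lcn2 result was not tested.

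The region before the start of Lcn2 is shown because its log2 FC is the largest of the 770 genes and the gene is a known target of inflammatory transcription factors, and that of Ptgs2 for comparison. Both are RefSeq sequences of GRCm38.p6, the 250 bases before the start, 5′ to 3′ on the strand of the gene (minus for Lcn2 at chr2:32387740-32387989, plus for Ptgs2 at chr1:150099781-150100030). Capitals mark matches, on either strand, to a kappaB pattern (GGGNNNTCC) and a C/EBP pattern (TTGCNNAA).
Lcn2: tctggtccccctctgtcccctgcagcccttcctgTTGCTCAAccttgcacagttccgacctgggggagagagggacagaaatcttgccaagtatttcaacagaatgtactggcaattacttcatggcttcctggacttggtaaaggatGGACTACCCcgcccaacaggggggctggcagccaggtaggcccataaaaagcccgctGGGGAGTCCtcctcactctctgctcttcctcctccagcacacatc
Ptgs2: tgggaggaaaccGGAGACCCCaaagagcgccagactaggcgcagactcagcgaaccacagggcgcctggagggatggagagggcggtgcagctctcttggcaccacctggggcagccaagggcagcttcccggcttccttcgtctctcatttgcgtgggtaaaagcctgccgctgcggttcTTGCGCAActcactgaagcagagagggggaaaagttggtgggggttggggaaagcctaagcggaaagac
The Lcn2 window held 2 kappaB matches and 1 C/EBP match, none overlapping. The Ptgs2 window held 1 kappaB match and 1 C/EBP match, which reads the same on both strands. Over the 32851 promoters of the table, 15.2% held the kappaB pattern and 9.56% the C/EBP pattern in a window of this length. A STAT pattern (TTCNNNGAA), found in 7.02% of promoters, was in neither window, and the windows of Emcn and F3 held no match to any of the 3 patterns. Ly6a, the other gene that passed adjustment, had no promoter entry, so its window could not be searched. A match is a run of letters and not a measured binding site.

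Ly6a, a surface protein also known as Sca-1 that marks endothelial cells in the brain, was the most uniform of the changes. Its values were 7.28, 7.25, 7.04 and 7.16 in vehicle mice at mid-light and 7.20, 7.30 and 6.75 at mid-dark. Tumor-bearing mice had 7.52, 7.52, 7.63, 7.88 and 7.72 at mid-light and 7.94, 7.78, 7.37, 7.89 and 7.79 at mid-dark. The lowest tumor value, 7.37, lay above the highest vehicle value, 7.30, so the groups did not overlap. The log2 FC was 0.56 (SE 0.094, 95% interval 0.36 to 0.76, adjusted p = 0.0133), a 1.48-fold difference, and without vehicle mouse 28, the lowest sample, it was 0.48 (adjusted p = 0.0251). In bulk tissue, more cells of a type and more RNA per cell cannot be told apart.

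**Figure D2:**
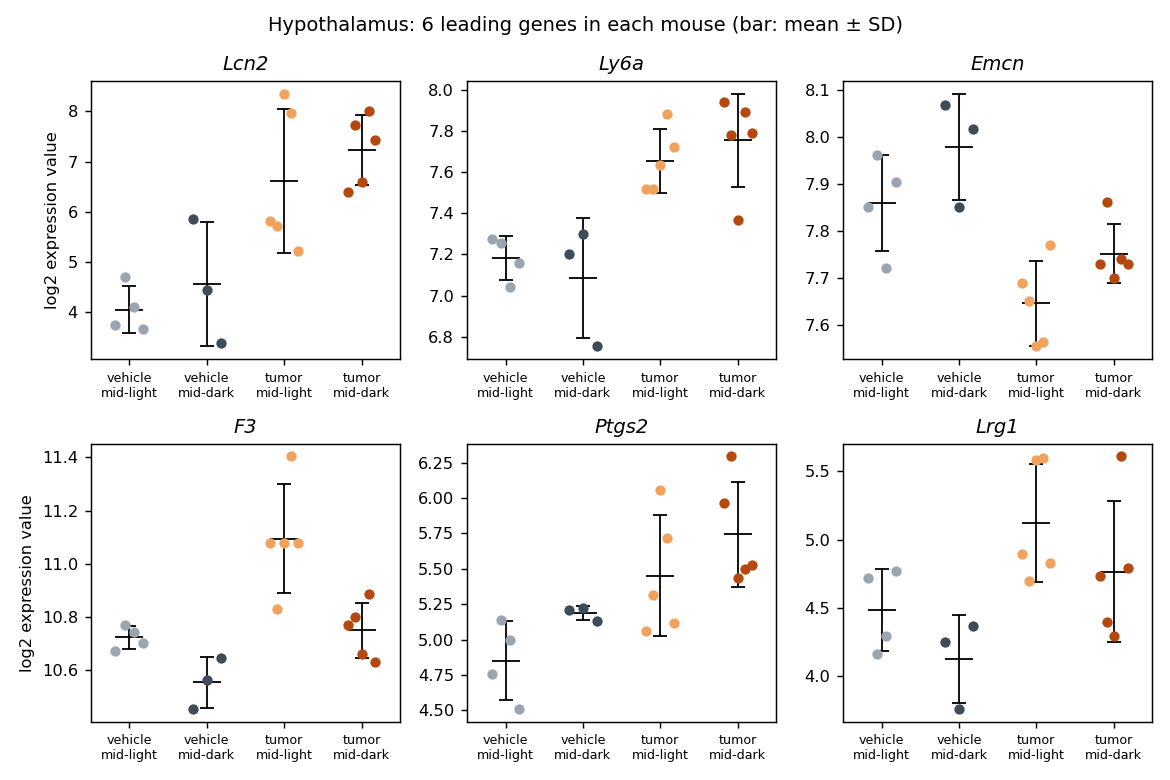
Log2 expression values of 6 genes in hypothalamus, 1 point per mouse in the 4 groups named on the x axis, with the group mean and SD as bars (4 and 3 vehicle mice, 5 and 5 tumor-bearing mice). Ly6a separates tumor-bearing from vehicle mice completely. Lcn2 separates them within each phase and overlaps between phases, through 1 vehicle mouse at mid-dark. The other 4 genes, with adjusted p of 0.0678 to 0.369 by limma, also overlap.

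Ly6a was the only 1 of 17 listed endothelial genes to pass at an adjusted p. Of the 17, 12 were above 0 and 5 below, while 51.6% of all genes were above 0. At an unadjusted p, 3 were higher and 1 lower, against 3.77% of all genes in each direction. The list median was 0.025 against 0.0035 for all genes. Emcn, endomucin, a sialomucin of the surface of veins and capillaries, had the third smallest p of the panel and a log2 FC below 0. Its values ran from 7.56 to 7.86 (median 7.72) in tumor-bearing and from 7.72 to 8.07 (median 7.91) in vehicle mice, all 10 tumor-bearing mice below the vehicle median and 5 below the lowest vehicle mouse. The log2 FC was -0.22 (SE 0.047) with an adjusted p of 0.0678. It did not pass, but the adjusted p was 0.0267 without vehicle mouse 22, 0.0281 without tumor mouse 29 and 0.0359 without vehicle mouse 8. Slc2a1, the glucose transporter GLUT1 of the blood-brain barrier, was 9.57 to 9.90 (median 9.68) against 9.34 to 9.65 (median 9.57), a log2 FC of 0.19 (SE 0.061, adjusted p = 0.369). Summed over the list, endothelial levels ran from 12.6 to 12.9 in tumor-bearing and from 12.6 to 12.8 in vehicle mice, and Pecam1, which defines endothelium, had a log2 FC of 0.078 (SE 0.099). The part of endothelial content in the Ly6a and Emcn differences was not tested.

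F3, tissue factor, which starts coagulation and is made by astrocytes and perivascular cells, followed Emcn in the order of p values. It ran from 10.6 to 11.4 (median 10.9) in tumor-bearing and from 10.5 to 10.8 (median 10.7) in vehicle mice, with 7 tumor-bearing mice above every vehicle mouse. The log2 FC was 0.29 (SE 0.068, adjusted p = 0.114). Without tumor mouse 5 the adjusted p was 0.0426, and in a fit over the 3 brain regions with the mouse as a block it was 0.00151.

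Ptgs2, Il1r1 and Osmr, of the route from blood cytokines to prostaglandins, had log2 FCs above 0 that did not pass adjustment. Ptgs2, cyclooxygenase-2, the inducible enzyme of prostaglandin synthesis, ran from 5.06 to 6.29 (median 5.51) in tumor-bearing and from 4.51 to 5.22 (median 5.13) in vehicle mice, and 8 of the 10 tumor-bearing mice lay above every vehicle mouse. The log2 FC was 0.58 (SE 0.15, adjusted p = 0.256). Il1r1, the signalling receptor for interleukin-1, was 6.78 to 7.58 (median 7.22) against 6.48 to 7.16 (median 6.90), a log2 FC of 0.40 (SE 0.12, adjusted p = 0.369). Osmr, the oncostatin M receptor of the IL-6 family, was 6.90 to 7.53 (median 7.17) against 6.62 to 7.02 (median 6.96), a log2 FC of 0.28 (SE 0.086, adjusted p = 0.369). In both receptor genes 9 of 10 tumor-bearing mice lay above the vehicle median, but the ranges overlapped.

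The rest of that route showed no common direction. Il1r1 and Osmr were the only 2 of 16 listed IL-1 and IL-6 type genes at an unadjusted p under 0.05. Over all genes that share was 7.53%, and the list median was 0.016. The ligand Il1b had a log2 FC of 0.029 (SE 0.14) at a mean of 4.18, within background, and Socs3, the feedback inhibitor of IL-6 type signalling, had -0.03 (SE 0.099). Ptgs2 was the only 1 of 8 prostaglandin and oxysterol genes at that p, with a list median of -0.035. Ch25h, which makes 25-hydroxycholesterol, had a log2 FC of 0.46 (SE 0.22, adjusted p = 0.661), with overlapping ranges of 3.73 to 5.08 and 2.79 to 4.45, and every vehicle value lay within background. None of 12 NF-kB subunits, inhibitors and kinases had an unadjusted p under 0.05 (median 0.011), and Nfkbia, the NF-kB inhibitor that the pathway itself induces, had 0.17 (SE 0.098), and Bcl10, an adaptor upstream of the kinases, 0.076 (SE 0.045).

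Among acute phase and secreted inhibitor genes, Lcn2 alone passed adjustment. At an unadjusted p, 3 of 9 were higher, against 3.77% of all genes. The list median was 0.12, with 8 of 9 genes above 0, against 51.6% of all genes. The lists were chosen with earlier results of these data known, so their counts are not read as enrichment. Lrg1, a secreted leucine-rich glycoprotein of inflamed vessels, ran from 4.29 to 5.61 (median 4.81) in tumor-bearing and from 3.76 to 4.77 (median 4.29) in vehicle mice. The log2 FC was 0.64 (SE 0.19, adjusted p = 0.369), and 6 tumor-bearing mice lay above every vehicle mouse, whose mean of 4.33 lay within background. With the mouse as a block over the 3 regions the adjusted p was 0.0487. Agt, angiotensinogen, made by astrocytes, had a log2 FC of 0.21 (SE 0.078, adjusted p = 0.388). Serpina3n, a protease inhibitor of reactive astrocytes, had 0.056 (SE 0.11), far below Lcn2. Of the 6 glucocorticoid responsive genes on the panel, Agt was the 1 higher at an unadjusted p, with a list median of 0.16 and 5 of 6 above 0.

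No microglia, myeloid or complement gene passed adjustment. None of 12 homeostatic microglia genes had an unadjusted p under 0.05. Their median was 0.0071, and Tmem119 and P2ry12, which define resting microglia, had log2 FCs of -0.096 (SE 0.051) and -0.052 (SE 0.069). Of 28 activated and phagocytic myeloid genes, 23 were above 0 with a median of 0.046, but only Fcgr2b, the inhibitory receptor for IgG, was higher at an unadjusted p, at 0.26 (SE 0.088, adjusted p = 0.369). It ran from 7.31 to 8.00 in tumor-bearing and from 7.04 to 7.70 in vehicle mice. Lilrb4a, an inhibitory myeloid receptor, had 0.23 (SE 0.13). All 9 complement genes were above 0, from 0.043 to 0.15 with a median of 0.11, and none had an unadjusted p under 0.05. Over all genes 51.6% were above 0 and 3.77% were higher at that p. C1qc, a chain of the C1q recognition protein, had 0.14 (SE 0.084), and C4a, of the classical pathway, 0.15 (SE 0.11).

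Oligodendrocyte genes were mostly below 0 but none passed adjustment. Of 24 on the panel 20 were below 0, with a median of -0.12 against 0.0035 for all genes. Only Sox10 was lower at an unadjusted p. Over all genes 373 of 770 were below 0 and 3.77% were lower at that p. Sox10, the transcription factor that specifies the lineage, ran from 7.41 to 8.13 (median 7.95) in tumor-bearing and from 7.92 to 8.45 (median 8.12) in vehicle mice, a log2 FC of -0.28 (SE 0.087, adjusted p = 0.369), and 9 of 10 tumor-bearing mice lay below the vehicle median. S1pr5, a sphingosine phosphate receptor of mature oligodendrocytes, had -0.20 (SE 0.099). The summed level of the list ran from 15.7 to 16.4 in tumor-bearing and from 15.8 to 16.4 in vehicle mice, nearly the same range. Whether the amount of myelinated tissue in each dissection differed was not tested.

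Astrocyte genes were split. Slc1a3, the glutamate transporter GLAST, was the 1 of 11 higher at an unadjusted p, with 0.12 (SE 0.048, adjusted p = 0.477). Kcnj10, the potassium channel Kir4.1, was the 1 lower, with -0.11 (SE 0.041, adjusted p = 0.388). The list median was -0.01.

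Neuronal genes were mostly below 0, 21 of 29 with a median of -0.062, and 2 were lower at an unadjusted p. Over all genes 373 of 770 were below 0 and 3.77% were lower at that p. Grin2a, the GluN2A subunit of NMDA receptors, ran from 7.07 to 7.73 in tumor-bearing and from 7.36 to 8.03 in vehicle mice, a log2 FC of -0.28 (SE 0.098, adjusted p = 0.369). Tubb3, neuronal beta-tubulin, had -0.13 (SE 0.045, adjusted p = 0.369). Slc17a7 had -0.90 (SE 0.58, unadjusted p = 0.136), with values of 4.85 to 8.94 in tumor-bearing and 6.17 to 9.05 in vehicle mice. High and low values occurred in both groups. Over 4 cortex and hippocampus neuron genes the median was -0.14 (Tbr1, a cortical transcription factor, had -0.24, SE 0.29), none with an unadjusted p under 0.05, and their sums ran from 10.8 to 11.4 and from 10.9 to 11.3. The 3 subpallial and hypothalamic neuron genes had a median of -0.033, among them Slc17a6 at -0.09 (SE 0.063) and Dlx1 at -0.033 (SE 0.15). With the level of Slc17a7 as a covariate, chosen after seeing the data, Lcn2 (2.65) and Ly6a (0.59) passed adjustment by limma, at 0.0447 and 0.0323. Emcn (-0.20) and F3 (0.28) did not, each at 0.203. Whether the dissections differed in neighboring tissue was not tested.

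Of 12 immediate early and activity genes, Arc, a synaptic protein induced by neuronal firing, was the 1 lower at an unadjusted p. It ran from 7.08 to 7.57 (median 7.28) in tumor-bearing and from 7.47 to 7.59 (median 7.50) in vehicle mice, a log2 FC of -0.20 (SE 0.064, adjusted p = 0.369). The list median was -0.03, and Fos had 0.082 (SE 0.22).

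E2f1, a transcription factor of the cell cycle, had a log2 FC of -0.61 (SE 0.18, adjusted p = 0.369), and the second smallest p among genes lower in tumor-bearing mice. It ran from 4.41 to 5.69 (median 5.06) in tumor-bearing and from 5.32 to 6.38 (median 5.45) in vehicle mice, with 8 tumor-bearing mice below every vehicle mouse. In the fit over the 3 regions with the mouse as a block its adjusted p was 0.00389. Trp53, the p53 tumor suppressor, had -0.15 (SE 0.049, adjusted p = 0.369) and Trp73, its homolog, -0.35 (SE 0.12, adjusted p = 0.369). Of 17 genes of the p53 and growth arrest list, those 2 were lower and 1 was higher at an unadjusted p. Over all genes 3.77% were called in each direction, and the list median was 0.02. Trp73, also expressed by ependymal cells that line the ventricles, was the 1 lower of 2 choroid plexus and ependymal genes, and Ttr, the choroid plexus product transthyretin, had -0.17 (SE 0.13).

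Of 31 lymphocyte, NK, mast cell and granulocyte markers, 20 were above 0 and 11 below, with a median of 0.072, and only Eomes was lower at an unadjusted p, against 3.77% of all genes. Eomes, a T-box factor of NK and T cells, ran from 2.79 to 5.25 in tumor-bearing and from 4.55 to 5.55 in vehicle mice, all 10 tumor-bearing mice below the vehicle median, with a log2 FC of -0.97 (SE 0.33, adjusted p = 0.369). The tumor mean of 4.20 lay within background, which limits that value. Ms4a2, of the mast cell IgE receptor, had -0.55 (SE 0.28) within background. The next 2 genes are outside that list and are given for their small p values. Blnk, an adaptor of B cell receptor signalling also found in microglia, ran from 5.64 to 6.57 against 6.29 to 6.90, a log2 FC of -0.39 (SE 0.12, adjusted p = 0.369). Cd209e, a C-type lectin, had -0.46 (SE 0.15, adjusted p = 0.369), with all values in both groups at or below the background level.

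Lists of interferon, chaperone, antioxidant, autophagy and reference genes had medians between -0.073 and 0.047, and none of their genes passed adjustment. In the interferon list 1 of 25 genes was higher and 1 lower at an unadjusted p, with a median of 0.047. They were Psmb8, an immunoproteasome subunit, at 0.16 (SE 0.067), and the chemokine Cxcl10, at -0.53 (SE 0.24), whose mean of 4.01 lay within background. Of 4 chaperones 2 were lower at an unadjusted p, against 3.77% of all genes. They were Hspb1 (HSP27) with -0.38 (SE 0.13, adjusted p = 0.369) and Calr (calreticulin) with -0.10 (SE 0.041, adjusted p = 0.473). In the Nrf2 and antioxidant list, Nqo1, a quinone reductase, was the 1 of 9 higher, at 0.18 (SE 0.067, adjusted p = 0.388), while Osgin1 had -0.33 (SE 0.21) at a mean of 4.45, within background, and the median was -0.0082. In the autophagy list 1 of 15 was higher, Calcoco2, a cargo receptor, at 0.43 (SE 0.15, adjusted p = 0.369) with a mean of 3.75, within background, while Optn, another cargo receptor, had 0.081 (SE 0.04). The 13 reference genes had a median of 0.0065 and ran from -0.084 to 0.12. Cnot10, a subunit of the CCR4-NOT complex, was the 1 of them at an unadjusted p under 0.05 and gave that highest value (SE 0.043). Lars, a tRNA synthetase gene among the references, had 0.077 (SE 0.049). The remaining genes among the 12 smallest p values of each direction were Cidea, a lipid droplet protein, at 0.21 (SE 0.072) and Dusp7, a MAP kinase phosphatase, at -0.12 (SE 0.039), both with an adjusted p of 0.369.

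**Figure D3:**
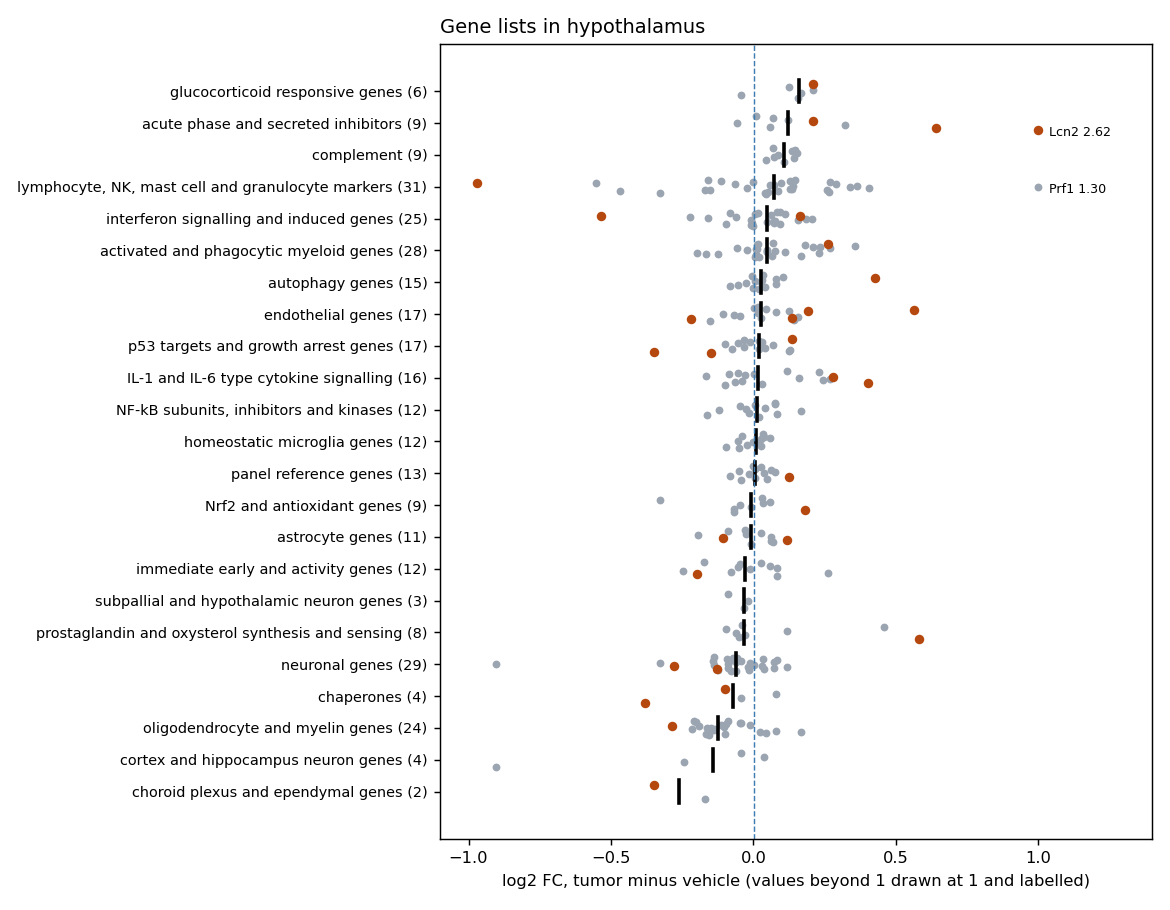
Each row is a gene list, with the number of its genes on the panel in brackets and each gene's log2 FC (tumor minus vehicle, adjusted for phase) on the x axis; orange points have an unadjusted p under 0.05, black bars are list medians and the dashed line is the median of all 770 genes. Medians ran from -0.26 for 2 choroid plexus and ependymal genes to 0.16 for 6 glucocorticoid responsive genes, and Lcn2 at 2.62 and Prf1 at 1.30 lie beyond the axis.

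Prf1, perforin of cytotoxic cells, which has the second largest log2 FC among higher genes, 1.30 (SE 0.73, unadjusted p = 0.0934), is named for that size alone. Its values include the floor of the table, -0.37, in both groups, and its vehicle median is at that floor, so no fold is given.

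The tumor effect was also estimated at each time of day. Lcn2 had a log2 FC of 2.68 (SE 0.70) at mid-dark and 2.57 (SE 0.65) at mid-light, and the difference between them gave an unadjusted p of 0.915. Ly6a had 0.67 (SE 0.14) and 0.47 (SE 0.13), with 0.304. Ptgs2 had 0.55 and 0.60, Lrg1 0.64 and 0.64, Il1r1 0.45 and 0.36, Emcn -0.23 and -0.21, and E2f1 -0.53 and -0.68. All 58 genes at an unadjusted p under 0.05 had the same sign at both times, which the averaging over phases favors. Within a phase no gene passed adjustment by limma, the smallest adjusted p being 0.166 at mid-dark and 0.473 at mid-light. At an unadjusted p under 0.05 there were 37 genes (4.81%) at mid-dark and 40 (5.19%) at mid-light.

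No gene differed between the phases in its tumor effect after adjustment by limma (smallest adjusted p = 0.487), and 20 (2.6%) had an unadjusted p under 0.05 for the interaction. The smallest p was that of Gadd45g, a stress sensor that is also induced by neuronal activity. It averaged 8.11 (SD 0.09) in tumor-bearing and 8.36 (SD 0.064) in vehicle mice at mid-dark, and 8.57 (SD 0.16) and 8.30 (SD 0.12) at mid-light. The tumor effect was thus -0.26 (SE 0.089) at mid-dark and 0.27 (SE 0.082) at mid-light, a difference of -0.52 (SE 0.12). Lair1, an inhibitory collagen receptor of leukocytes, had 0.16 (SE 0.073) and -0.20 (SE 0.067), a difference of 0.36 (SE 0.099). Maff, a small Maf transcription factor, had -0.42 (SE 0.10) and 0.033 (SE 0.096), a difference of -0.45 (SE 0.14). With 3 and 4 vehicle mice per phase, each of these rests on few animals.

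**Figure D4:**
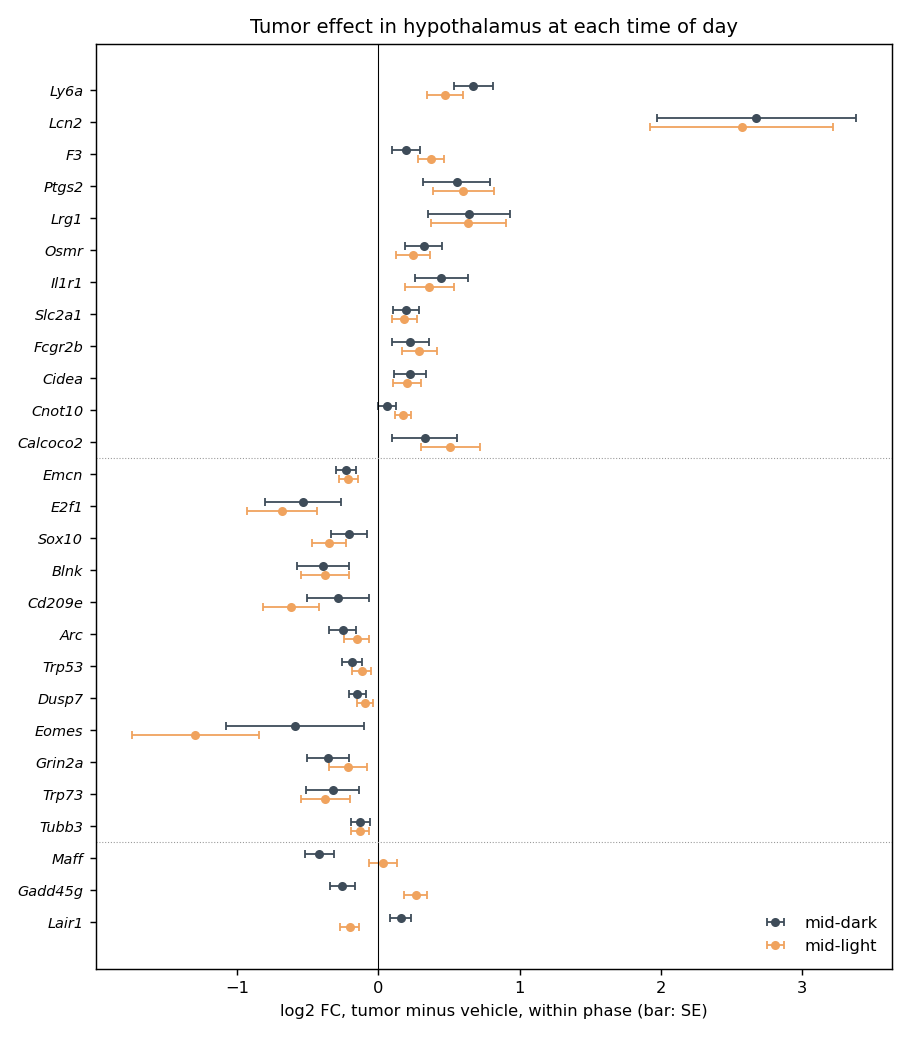
Log2 FC (tumor minus vehicle) within mid-dark and within mid-light on the x axis, with SE bars, for the 12 genes of smallest p in each direction and the 3 of smallest interaction p (rows, separated by dotted lines). The first 24 genes lie on the same side of 0 at both times, while Maff, Gadd45g and Lair1 do not.

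The same mice gave hippocampus (20 samples) and brain stem (19 samples), and the tumor effects were compared in 1 fit over the 3 regions with the mouse as a block. In that fit Lcn2 had a log2 FC of 2.63 (SE 0.35) in hypothalamus, 3.74 (SE 0.32) in hippocampus and 3.33 (SE 0.33) in brain stem. The hypothalamus estimate was lower than the hippocampus one by 1.11 (difference -1.11, SE 0.44, unadjusted p = 0.0153, adjusted p = 0.711). The vehicle values of Lcn2 in hypothalamus lay close to background, which limits its estimate there, so no order of the regions is read from it. Ly6a had 0.57 (SE 0.098), 0.60 (SE 0.089) and 0.58 (SE 0.092) in the same order, within 1 SE of each other.

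Ptgs2 and Il1r1 had similar estimates in hypothalamus and brain stem and lower ones in hippocampus. Ptgs2 had 0.57 (SE 0.16) in hypothalamus, -0.077 (SE 0.14) in hippocampus and 0.72 (SE 0.15) in brain stem, and the hypothalamus minus hippocampus difference was 0.65 (SE 0.20, adjusted p = 0.492). Il1r1 had 0.39 (SE 0.11), 0.0086 (SE 0.10) and 0.62 (SE 0.11). Lrg1 had 0.64 (SE 0.17), 0.76 (SE 0.15) and 0.58 (SE 0.16), and Osmr 0.27 (SE 0.09), 0.32 (SE 0.082) and 0.45 (SE 0.084). Ch25h had 0.48 (SE 0.23) in hypothalamus and 1.00 and 1.01 in hippocampus and brain stem, a difference from hippocampus of -0.53 (SE 0.29), and its vehicle values in hypothalamus lay within background.

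E2f1, F3 and Trp53 differed from hippocampus at an unadjusted p under 0.05, none past adjustment. E2f1 had -0.62 (SE 0.13) in hypothalamus, 0.056 (SE 0.12) in hippocampus and -0.066 (SE 0.12) in brain stem, and had the smallest adjusted p of the hypothalamus minus hippocampus contrast, 0.128 (difference -0.67, SE 0.16). F3 had 0.29 (SE 0.057), 0.11 (SE 0.052) and 0.092 (SE 0.054). Trp53 differed from hippocampus by -0.31 (SE 0.086, adjusted p = 0.244). Psmb8 and Tgm1, a transglutaminase with a mean of 3.23 within background, differed from brain stem by 0.28 (SE 0.084) and -0.93 (SE 0.31). No gene passed adjustment by limma in either contrast, whose unadjusted counts were 42 genes (5.45%) against hippocampus and 16 (2.08%) against brain stem, and the smallest adjusted p against brain stem was 0.731. Without mouse 8 the count by adjusted p against hippocampus was 1 (E2f1).

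**Figure D5:**
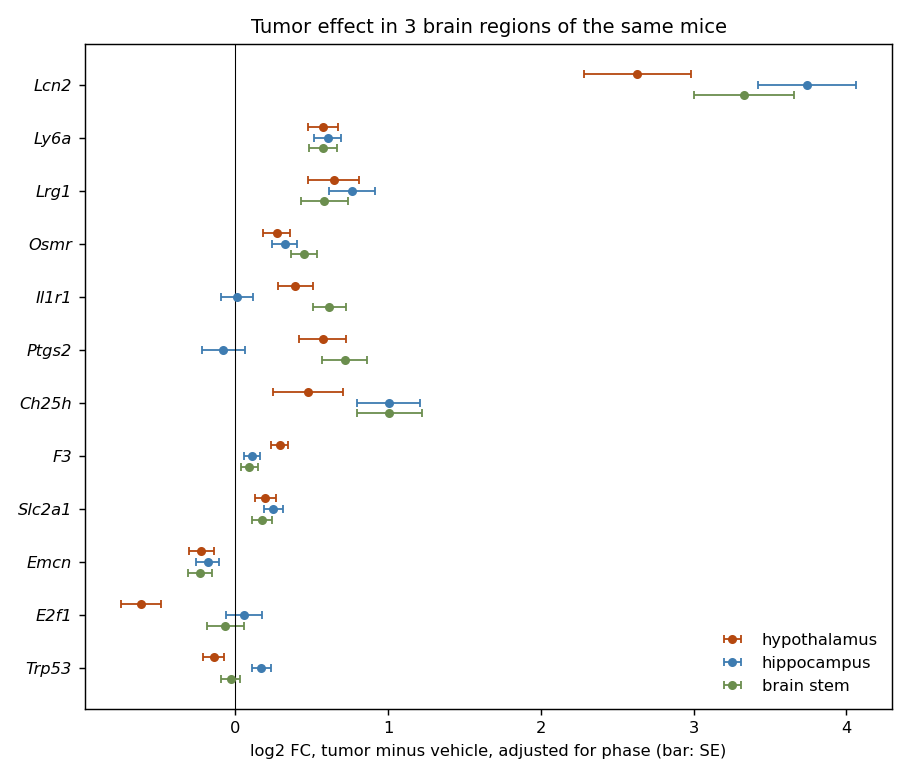
Log2 FC (tumor minus vehicle, adjusted for phase) with SE bars on the x axis for 12 genes in hypothalamus, hippocampus and brain stem, from 1 fit over the 3 regions with the mouse as a block. Ly6a gave nearly the same estimate in each region, Lcn2 had 2.63 in hypothalamus, where its vehicle values were close to background, Ptgs2 and Il1r1 were near 0 in hippocampus alone, and E2f1 was below 0 by over 0.5 in hypothalamus alone.

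RNA quality and body mass were set beside these results. The RNA concentration, the 260/280 ratio and the 260/230 ratio did not separate the groups (exact permutation tests within phase, two-sided, p = 0.742, 0.505 and 0.267). The 260/230 ratio was 0.44 in tumor mouse 1 and 1.14 in tumor mouse 7 and at least 1.76 in all other samples. Without those 2 mice, Lcn2 (2.67, adjusted p = 0.0396) and Ly6a (0.58, adjusted p = 0.0396) still passed. Body mass was 24.7 g in tumor-bearing and 23.2 g in vehicle mice on average, a phase-adjusted difference of 1.46 g (exact permutation test within phase, two-sided, p = 0.00935, adjusted over 5 measures p = 0.0234). In every tumor-bearing mouse the heavier of its 2 tumors weighed more than 1.46 g. Tumor mass was not subtracted, and whether body mass included the tumors is not known here. The sign of a body mass difference without the tumors is therefore not known. The part of body mass in the expression differences was not tested.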

How the data were processed

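RNA of dissected hypothalamus was extracted with Trizol. From the nCounter counts the authors subtracted the negative background, normalized to positive controls and codeset content in nSolver, left out outliers by the raw data and applied quantile normalization in Partek. The deposited values are log2, so depth is unknown. Groups follow tumor status and phase in the sample labels, and mice are the replicates.

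limma 3.58.1 in R 4.3.3 was fitted to the 17 samples with tumor and phase as terms, Benjamini-Hochberg adjusted over 770 genes. A fit of 4 group means gave the effects per phase and the interaction. Another fit took all 3 regions with the mouse as a block (consensus correlation 0.141), since same-numbered samples came from the same animal. Exact permutation tests, within phase and two-sided, and the linear models of the methods were alternatives. Models were checked on simulated data with independent noise for each sample and the hypothalamus spread in every region. That check does not cover the mouse block or unequal spread between regions. Figures used Python 3.11.15 and matplotlib 3.10.9.

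The comparison, the genes and the 23 gene lists were chosen with earlier results of these data known. Named genes were those with an adjusted p under 0.05, the 12 with the smallest p per direction, up to 2 per list, and the 3 with the smallest p for the interaction and for each region difference. Uty, Kdm5d, Prf1, Ly6g, Csf3r, Fpr1, Hdc, Pecam1, Il1b, Socs3, Serpina3n and Fos were named after their values were seen, as were the motif patterns after the results. Of the 770 panel genes, 601 had a RefSeq promoter entry.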

Additional observations from a re-analysis of the deposited data

Results flagged for a closer look

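In the groups of 4 or 5 mice, named genes were searched for single samples far from the rest of their group by Dixon's criterion. It marked 8 of 162 groups tested, close to the 1 in 20 that chance marks, so the count as a whole is not above chance. At mid-dark, tumor mouse 7 accounted for 3 of them. Its Emcn value was 7.86 (others 7.70 to 7.74), its Trp53 value 7.41 (others 7.60 to 7.63) and its Kcnj10 value 12.9 (others 13.0 to 13.1). This sample had a 260/230 ratio of 1.14, and the part of that ratio in its values was not tested. Tumor mouse 11 at mid-dark had a Ly6a value of 7.37 (others 7.78 to 7.94), the lowest of the tumor-bearing mice. Without it the log2 FC of Ly6a was 0.60 (adjusted p = 0.00352 by limma). Tumor mouse 23 at mid-dark had a Grin2a value of 7.11 (others 7.38 to 7.48). Among vehicle mice at mid-light, mouse 30 had a Dusp7 value of 9.72 (others all 9.75), and mouse 2 had a Calr value of 13.7 (others all 13.8) and a Lars value of 10.2 (others 10.1). Since several of these samples share 1 value after quantile normalization, the flags for Dusp7 and Calr rest on small steps of the scale.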

How the results depend on the processing

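Of 54 named genes, 50 kept their sign under all 32 alternatives. Tbr1 was 0.034 with Slc17a7 as a covariate. Dlx1 was 0.0074 with arrayWeights, 0.047 with the 260/230 ratio as a covariate, 0.034 without samples under a 260/230 ratio of 1.5, and -0.13 to 0.051 with each mouse left out (above 0 without mice 1, 28 and 30). With each mouse left out, Gadd45g was -0.021 to 0.071 (below 0 without mice 1, 6 and 9) and Lair1 -0.073 to 0.00071 (above 0 without mouse 6). Of 244 recomputed counts, 231 were within 1.5 times the reported one.

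The count of genes higher by adjusted p, reported as 2, was 0 by the exact permutation test, 4 in the fit over 3 regions with the mouse as replicate block (Lcn2, Ly6a, F3 and Lrg1), 3 in that fit without the replicate block, and 1 to 3 with each mouse left out. It was 1 (Ly6a) without vehicle mouse 28, where Lcn2 had an adjusted p of 0.0534 (0.0115 to 0.0534 over all single mice left out). The count lower, reported as 0, was 1 with the ordinary p of a linear model and 1 with genes of mean 5 or more (Emcn in both), 1 in the 3-region fit with or without the replicate block (E2f1), and 0 to 1 with each mouse left out (Emcn without mouse 8, 22 or 29). Genes lower by unadjusted p, reported as 29, numbered 24 to 48 with each mouse left out, 48 being without tumor mouse 5, and those higher numbered 25 to 38. The mid-dark count by adjusted p was 0 to 1 (Ly6a without mouse 11), and the hypothalamus minus hippocampus count 0 to 1 (E2f1 without mouse 8). The counts at mid-light, for the interaction and against brain stem were 0 throughout. The cause of these shifts was not tested. The Slc17a7 covariate was chosen after seeing the data. With 7 vehicle mice and a median SE of 0.083, differences much smaller than that of Ly6a were not resolved for most genes, and depth is unknown.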
